A study of Mus musculus with 6 samples.

Results

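The 40 genes described here copy the mouse genome in S phase or prepare a cell for it. By role, 9 encode parts of the replicative helicase, and 5 were grouped under origin recognition and licensing. Mcm10, which helps activate the helicase, was counted among those 5. Another 6 encode the sliding clamp and its loader, and 6 polymerases and primase. A further 4 supply nucleotides, 4 bind single strands or join Okazaki fragments, 3 regulate entry into S phase, and 3, among them Chaf1a, act on chromatin behind the fork. All probe sets that carry 1 of these symbols alone were taken from the deposited table, which gave 88 probe sets of 39 genes, out of 45037 probe sets and 18193 named genes in all. Chaf1a, a subunit of the histone chaperone CAF-1, had no such probe set and has no value here.

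RNA came from natural killer (NK) cells, innate lymphocytes that kill infected or transformed cells, which flow cytometry separated from RAG-/- mouse spleen by NK1.1, CD27 and CD11b. Every group carried the RAG-/- genotype, which stops antigen receptor rearrangement and so removes mature T and B cells, and no treatment was labelled. The sorted cells had CD27 alone (CD27+CD11b-), CD27 and CD11b (CD27+CD11b+), or CD11b alone (CD27-CD11b+), and each of these 3 subsets was hybridised to 2 Affymetrix whole-genome arrays. The series design calls these independent replicates, but the labels tie no array to an animal, so the p-values below measure a spread between samples that may be technical.

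Replication begins when the origin recognition complex, Cdc6 and Cdt1 load a ring of Mcm2 to Mcm7 onto DNA. Cdc45 and the GINS complex turn that ring into an active helicase in S phase, after which primase, the polymerases, the clamp Pcna and its loader copy both strands. Many of these genes are transcribed under E2F factors as a cell leaves the resting state, and NK cells with CD27 and without CD11b are usually placed before the other subsets in maturation.

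E2F binding is commonly read from short elements just before the transcription start, so the promoters of 4 members are shown: Cdc6, a member called lower in CD27-CD11b+, Mcm5 and Mcm6, which carry the other E2F form, and Rpa2, the member with the largest positive difference. The sequences are the 160 bases before the start in RefSeq on GRCm38.p6, written 5′ to 3′ on the strand of the gene, and capitals mark TTTCCCGC, TTTGGCGC or their reverse complements. Cdc6 is at chr11:98907991-98908150 on the plus strand, Mcm5 at chr8:75109349-75109508 on the plus strand, Mcm6 at chr1:128359706-128359865 on the minus strand and Rpa2 at chr4:132768200-132768359 on the plus strand.
Cdc6: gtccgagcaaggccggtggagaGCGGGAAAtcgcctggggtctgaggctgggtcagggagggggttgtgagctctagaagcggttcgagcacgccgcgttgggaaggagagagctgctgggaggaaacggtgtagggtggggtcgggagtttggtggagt
Mcm5: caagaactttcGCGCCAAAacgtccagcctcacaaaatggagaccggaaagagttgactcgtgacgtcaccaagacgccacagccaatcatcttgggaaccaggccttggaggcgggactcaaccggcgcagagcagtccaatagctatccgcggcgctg
Mcm6: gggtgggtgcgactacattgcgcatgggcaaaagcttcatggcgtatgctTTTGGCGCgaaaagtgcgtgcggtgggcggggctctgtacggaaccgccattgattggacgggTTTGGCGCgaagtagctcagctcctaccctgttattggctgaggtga
Rpa2: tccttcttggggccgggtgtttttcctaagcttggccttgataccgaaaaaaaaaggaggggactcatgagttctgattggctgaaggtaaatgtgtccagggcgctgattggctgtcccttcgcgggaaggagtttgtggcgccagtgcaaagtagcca

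A window from 250 bases before to 50 after the start was found for 33 of the 40 members. Either E2F element, on either strand, occurred in the windows of 9 members (27.3%), against 400 of the 14452 measured genes with a window (2.77%). The 9 were Mcm3, Mcm5, Mcm6, Mcm7, Cdc6, Cdt1, Rfc3, Pola1 and Pold1. The CCAAT box, searched on both strands and not contained in either element, occurred in 20 of the 33 (60.6%) against 42.0% of all genes. A match describes these letters only and does not show that a factor binds there. Other forms of the E2F element were not searched, so a window without a match may still hold one.

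All levels are log2 values that share one scale within a probe set, so 2 genes' levels are not set against each other. Array medians lay between 5.26 and 5.36. A gene was taken as above background where a subset's mean passed 6.25, the level under which 95% of 46 measured genes of other tissues lay, and 35 of the 39 members passed it in at least 1 subset. Cdc45, Tyms, Ccne2 and E2f1 did not. NK genes were high on every array (mean of 11 genes 11.67 to 12.59), the 9 B cell genes were all at or under background on every array, and 2 of 8 T cell genes had a mean above it. Cd27 and Itgam, which encodes CD11b, followed the titles: Itgam read 6.37 and 5.88 in the CD27+CD11b- subset, 8.69 and 8.01 in CD27+CD11b+ cells, and 9.93 and 9.44 in CD27-CD11b+. The sort description of CD27-CD11b+ replicate 1 names the CD27+CD11b- gate against its title. That array read 6.96 for Cd27, where the 4 CD27+ arrays read 8.03 to 8.92, and it was kept under its title, with results also given without it.

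The 6 arrays also divide in another way, 1 array of each subset on either side. On 3 probe sets without a gene name the mean was 12.57 to 12.81 on one side, called high arrays here, and 4.33 to 4.47 on the other, called low arrays. The low arrays were replicate 1 of CD27+CD11b- and of CD27+CD11b+, and replicate 2 of CD27-CD11b+. Markers of monocytes and macrophages moved with the division: 15 of 18 measured had a mean above background, and their mean level was 6.23 to 7.15 on the low arrays and 7.62 to 8.02 on the high arrays. Neutrophil genes (5 of 8 above background) averaged 6.0 to 6.62 and 7.22 to 7.48. The mean of the erythroid genes (4 of 9 above background) ran the other way, at 6.78 to 6.90 on the low arrays and 6.36 to 6.51 on the high arrays. Of those above background, Alas2 and Slc4a1 were higher on the low array of each subset. Tfrc and Car2 were not higher on the low array in every subset. The part of these cells in the results was not tested, and in sorted bulk RNA fewer cells of a type and less RNA per cell cannot be told apart.

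Members were lower in the more mature subsets in number, while few passed the test one by one. The median member level was 8.26 and 7.95 on the arrays of CD27+CD11b-, 8.12 and 7.73 in CD27+CD11b+, and 7.58 and 7.73 in CD27-CD11b+. Of the 39 members, 24 had means ordered CD27+CD11b- over CD27+CD11b+ over CD27-CD11b+, against 4590 of 18193 genes, and 3 had the opposite order, against 4814 genes. CD27+CD11b- replicate 1 was the highest array for 25 of the 39, against 21.7% of all genes, so the order leans on that array. A limma F test over the 3 subsets, with Benjamini-Hochberg adjustment across the 18193 genes, called 2 members, Rpa2 and Ccne2 (1.35% of all genes were called).

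**Figure D1:**
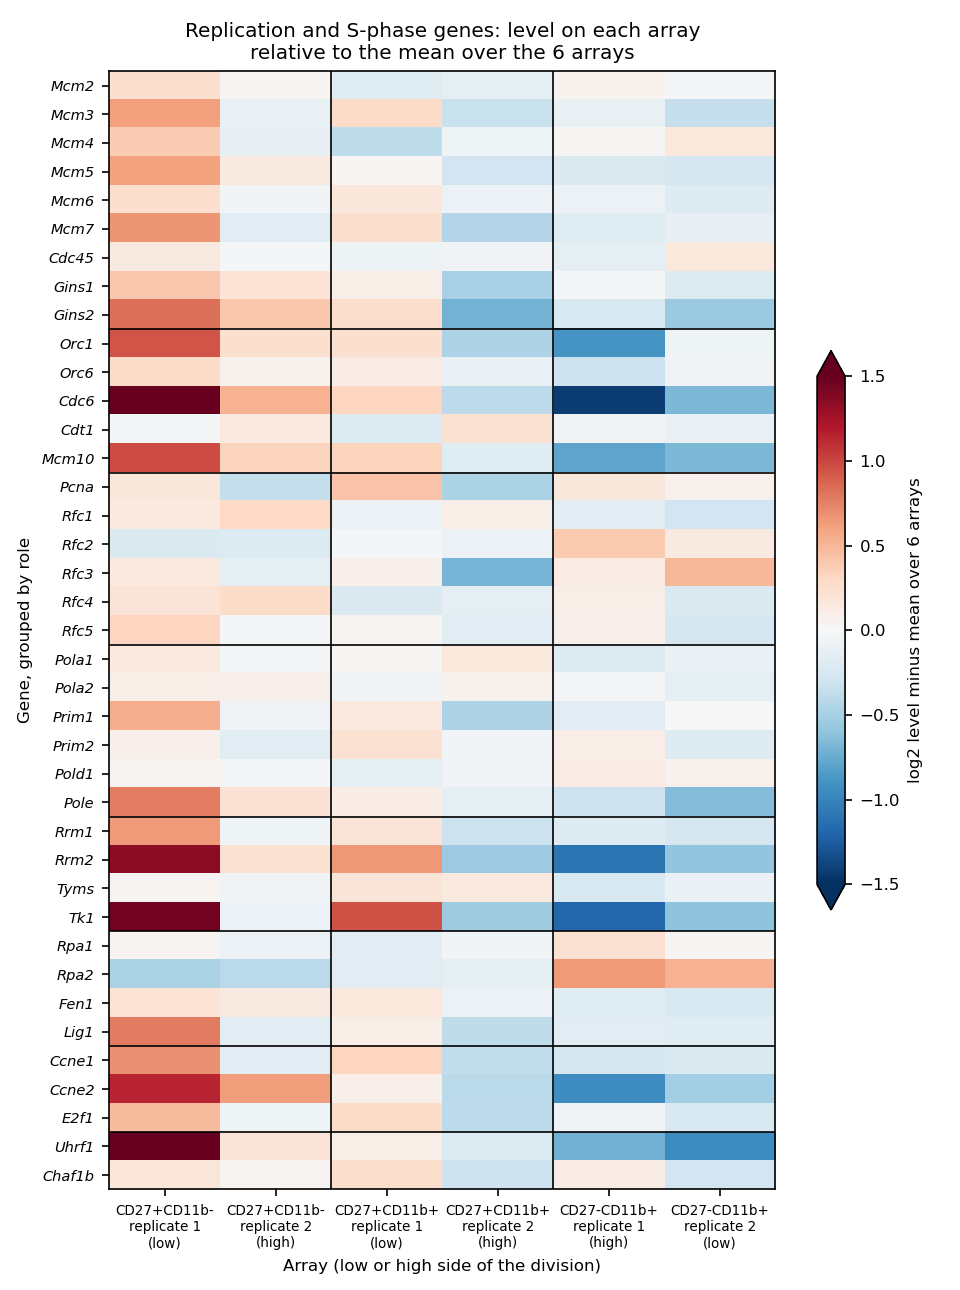
Each row is 1 of the 39 measured members, grouped by role, and each column 1 of the 6 arrays; colour gives the log2 level minus that gene's mean over the 6 arrays. CD27+CD11b- replicate 1 is the highest array for 25 members, and Rpa2 is highest on both CD27-CD11b+ arrays.

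The first comparison, CD27+CD11b+ against CD27+CD11b-, asks which members differed with the gain of CD11b. Of the 39 members, 33 had a negative difference, against 51.9% of all genes, with a median of -0.29 on the log2 scale (all genes -0.0074) and a range of -1.12 to 0.29. Both CD27+CD11b+ arrays lay below both CD27+CD11b- arrays for 15 members (15.6% of all genes) and above them for 3 (14.7%). The limma fit called 0 members lower (0.0879% of all genes were) and 0 higher (0.033%), while 8 were lower and 0 higher at an unadjusted p under 0.05 (1.96% and 1.84% of all genes). With the division as a block, limma called 2 lower, Cdc6 and Ccne2, and 0 higher (0.258% and 0.0605%). On both sides of the division 29 members were lower (30.6% of all genes) and 4 higher (27.9%). Leaving out replicate 1 of CD27+CD11b- moved the median to -0.072, and leaving out replicate 2 of CD27+CD11b+ moved it to -0.13.

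The second comparison, CD27-CD11b+ against CD27+CD11b+, concerns the loss of CD27 and shares the CD27+CD11b+ arrays with the first. The median over members was -0.12 (all genes 0.019), with a range of -1.10 to 0.73, and 27 of 39 differences were negative (46.9% of all genes). Of the members, 12 did not overlap and were lower (17.1%), and 7 were higher (22.8%). The limma fit called 0 lower (0.126%) and 0 higher (0.17%), with 3 lower and 2 higher at an unadjusted p under 0.05 (3.44% and 7.7%). With the division as a block, 1 was called lower, Cdc6, and 1 higher, Rpa2 (0.731% and 0.896%). On both sides of the division 15 were lower (24.3%) and 7 higher (31.2%). The median over members was -0.30 between the low arrays and 0.11 between the high arrays, beside -0.043 and 0.093 over all genes, which differed in sign as well. Over all arrays but replicate 1 of CD27+CD11b+ it was 0.065, and over all but replicate 2 of that subset -0.30. Without CD27-CD11b+ replicate 1, the array with the conflicting sort description, the median over members was -0.17 (all genes -0.026).

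CD27-CD11b+ against CD27+CD11b-, the outermost subsets, shares arrays with both steps. Here 32 of 39 members had a negative difference (50.8% of all genes), with a median of -0.35 (all genes -0.0055) and a range of -2.13 to 1.02. Arrays did not overlap for 24 lower members (24.3% of all genes) and 3 higher ones (26.9%). The limma fit called 3 lower, Cdc6, Mcm10 and Ccne2 (1.15% of all genes), and 1 higher, Rpa2 (2.24%). At an unadjusted p under 0.05 these were 12 and 2 (6.39% and 12.5%). With the division as a block, 8 were called lower (2.83%), the added ones being Orc1, Pole, Rrm2, Tk1 and Uhrf1, and 1 higher (5.3%). On both sides of the division 26 members were lower (31.9%) and 4 higher (33.9%). No member call held without the first CD27+CD11b- array or without either CD27-CD11b+ array, and calls over all genes fell in those fits. The median over members was -0.12 without CD27+CD11b- replicate 1 and -0.42 without replicate 2 of that subset. Without CD27-CD11b+ replicate 1, the array with the conflicting sort description, it was -0.40, and without CD27-CD11b+ replicate 2 it was -0.32.

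**Figure D2:**
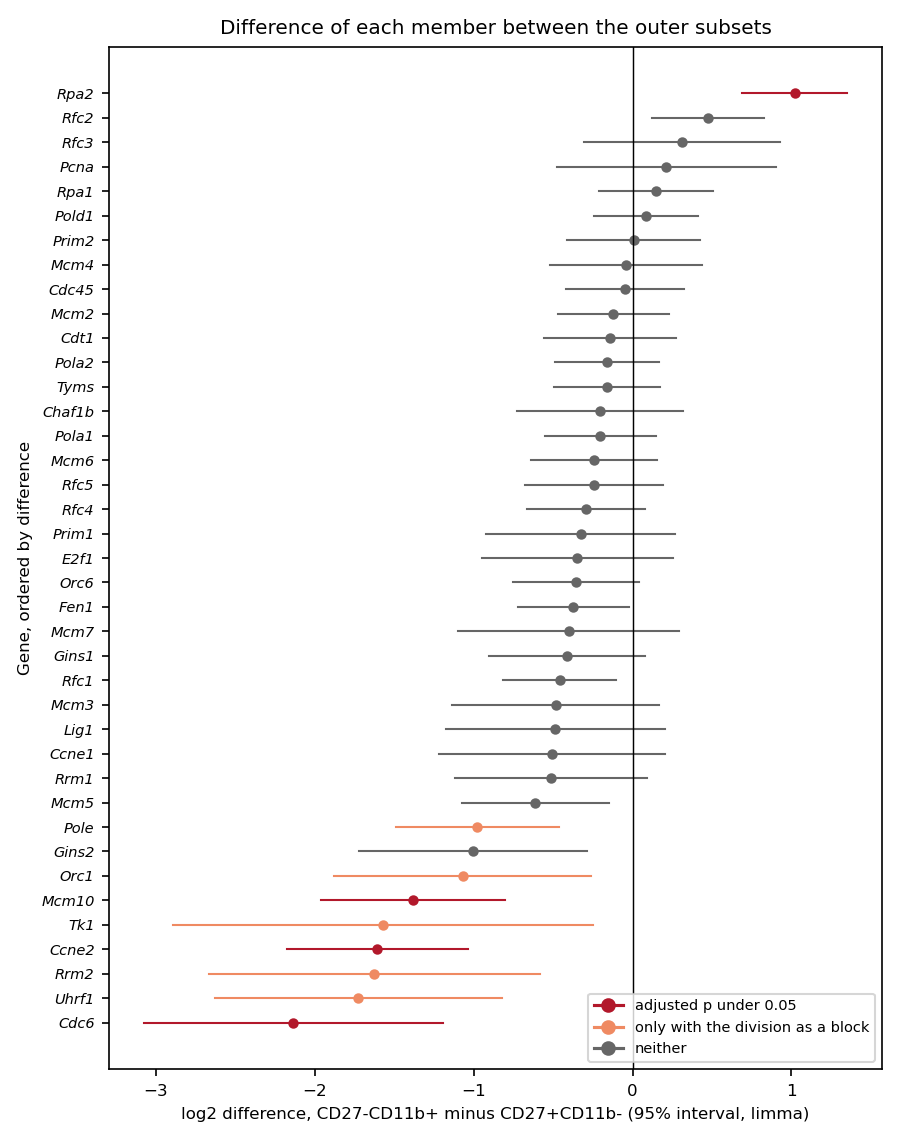
Points give the log2 difference of each of the 39 members, CD27-CD11b+ minus CD27+CD11b-, from the limma fit over 6 arrays, and bars the 95% interval; colours mark an adjusted p under 0.05 without and only with the division as a block. Differences run from -2.13 for Cdc6 to 1.02 for Rpa2, and 32 points lie left of 0.

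Genes grouped under origin recognition and licensing had a median difference of -1.07 between the outermost subsets. All 5 of 5 members were lower without overlap (24.3% of all genes were). Of these, Cdc6, Mcm10 and Orc1 averaged under background in CD27-CD11b+. Their fitted differences are therefore given with the fold by which the CD27+CD11b- mean passed background. That fold leaves out the spread between arrays. Cdc6, the ATPase that helps load the Mcm ring, read 7.50 and 6.38 in CD27+CD11b- (replicates 1 and 2), 6.18 and 5.46 in CD27+CD11b+, and 4.43 and 5.18 in CD27-CD11b+. Each subset lay wholly below the one before it, and only the CD27+CD11b- arrays were above background. Between the outermost subsets the fitted difference was -2.13 (SE 0.41, limma adjusted p = 0.0345, and 2.45e-04 with the division as a block). The CD27+CD11b- mean was 1.62-fold above background, and the CD27-CD11b+ mean was under it. With the block, both steps passed as well, at -1.12 (adjusted p = 0.0347) and -1.02 (adjusted p = 0.0258) by limma, although CD27+CD11b+ and CD27-CD11b+ both averaged under background. Neither step passed with the block where all probe sets were fitted as separate features (limma adjusted p = 0.345 and 0.172).

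Mcm10, a scaffold that helps activate the helicase, read 6.98 and 6.34 in CD27+CD11b-, 6.34 and 5.83 in CD27+CD11b+, and 5.22 and 5.34 in CD27-CD11b+. The CD27-CD11b+ arrays were the lowest and alike, while the first pair of subsets touched at 6.34. It fell by 1.38 (SE 0.25, limma adjusted p = 0.0297) between the outermost subsets, and its CD27+CD11b- mean was 1.34-fold above background. Orc1, the largest subunit of the origin recognition complex, read 7.46 and 6.76, then 6.75 and 6.05, then 5.63 and 6.45 in the same order. The outermost subsets did not overlap, but CD27+CD11b+ and CD27-CD11b+ did. The difference of -1.07 (SE 0.35) had a limma adjusted p of 0.154, and 0.00409 with the block, and the background supports at least 1.82-fold lower.

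Orc6 and Cdt1, the members of this role with the highest means beside those above, moved little. Orc6 read 7.90 and 7.66 in CD27+CD11b-, 7.72 and 7.50 in CD27+CD11b+, and 7.30 and 7.55 in CD27-CD11b+. Cdt1, which brings the Mcm ring to origins, read 10.91 and 11.08, then 10.74 and 11.16, then 10.89 and 10.82. Cdt1 overlapped between the first 2 subsets and between the last 2, and its outermost difference was -0.14 with a 95% interval of -0.56 to 0.27 (limma). A further Cdt1 probe set above background gave 0.31, the opposite sign.

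The helicase genes had 9 of 9 negative differences between the outermost subsets, with a median of -0.40, and limma called 0 of them with or without the block. Mcm7 read 11.57 and 10.74 in CD27+CD11b-, 11.15 and 10.47 in CD27+CD11b+, and 10.72 and 10.78 in CD27-CD11b+. Both CD27+ subsets spread over more than the CD27-CD11b+ arrays did, and CD27-CD11b+ replicate 2 lay above CD27+CD11b- replicate 2. Mcm6 read 10.52 and 10.23, then 10.45 and 10.19, then 10.18 and 10.09. Its outermost subsets did not overlap, and the difference of -0.24 (SE 0.17) did not pass in limma (adjusted p = 0.505). Gins2, a GINS subunit, had the largest difference of the role at -1.01 (SE 0.31, limma adjusted p = 0.133), or at least 1.71-fold lower given the background. Cdc45, which joins the ring and GINS, was represented by a probe set at 5.95 to 6.24 on all arrays. Its other probe set, just above background in CD27+CD11b-, gave -0.97 (SE 0.37, adjusted p = 0.299 in the limma fit of all probe sets).

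Clamp and loader genes were split, with 3 of 6 negative and a median of -0.02 between the outermost subsets. Pcna, the ring that holds polymerases on DNA, read 12.12 and 11.59 in CD27+CD11b-, 12.38 and 11.48 in CD27+CD11b+, and 12.12 and 12.01 in CD27-CD11b+. The arrays of the 3 subsets overlapped, and within each subset the low array was the higher one except in CD27-CD11b+. Rfc2, a loader subunit, read 9.64 and 9.65, then 9.84 and 9.77, then 10.25 and 9.99. These did not overlap and ran upward, but the outermost difference of 0.48 (SE 0.15) did not pass in limma (adjusted p = 0.147, and 0.0989 with the block). Other Rfc2 probe sets above background were lower in the first step (-0.04 and -0.13) and higher between the outermost subsets (0.31 and 0.27).

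Of the polymerase and primase genes, 4 of 6 were negative with a median of -0.18. Pole, the catalytic subunit of the leading-strand polymerase, read 7.50 and 6.95 in CD27+CD11b-, 6.84 and 6.59 in CD27+CD11b+, and 6.42 and 6.08 in CD27-CD11b+. The 3 subsets did not overlap, and the outermost difference was -0.98 (SE 0.22), with a limma adjusted p of 0.0583, and 0.0284 with the block. Pold1, the catalytic subunit of the lagging-strand polymerase, read 9.46 and 9.38, then 9.26 and 9.35, then 9.53 and 9.48. CD27+CD11b+ was the lowest and CD27-CD11b+ the highest by a small margin, and the outermost difference was 0.083 with a 95% interval of -0.24 to 0.41 (limma). Prim1, the catalytic primase subunit, read 8.88 and 8.28, then 8.48 and 7.87, then 8.17 and 8.33, with overlap between all subsets.

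Of the nucleotide supply genes, 4 of 4 were lower without overlap between the outermost subsets (24.3% of all genes were), with a median of -1.04. The count and the median include Tyms, which was under background on every array. Rrm2, the S-phase subunit of ribonucleotide reductase, read 9.66 and 8.55 in CD27+CD11b-, 8.97 and 7.78 in CD27+CD11b+, and 7.23 and 7.73 in CD27-CD11b+. Tk1, the thymidine salvage kinase, read 7.63 and 6.10, then 7.13 and 5.65, then 5.0 and 5.58. In both genes the 2 CD27+ subsets overlapped, because the arrays within a subset lay more than 1 log2 unit apart. On the probe sets used, CD27-CD11b+ was below all of them. Other Rrm2 probe sets above background overlapped between CD27+CD11b+ and CD27-CD11b+. Their outermost differences were -1.31 and -1.09 (adjusted p = 0.203 and 0.214 with the block in the limma fit of all probe sets). In that fit the Rrm2 probe set used had 0.0424. Rrm2 differed by -1.63 (SE 0.45) between the outermost subsets, with a limma adjusted p of 0.102, and 0.00243 with the block. Tk1 differed by -1.57 (SE 0.57), with a limma adjusted p of 0.19, and 0.00672 with the block, or at least 1.53-fold lower given the background.

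Rrm1, the large reductase subunit, read 9.63 and 8.92 in CD27+CD11b-, 9.18 and 8.66 in CD27+CD11b+, and 8.80 and 8.73 in CD27-CD11b+, and its outermost difference of -0.51 (SE 0.26) did not pass in limma (adjusted p = 0.34). Tyms, which encodes thymidylate synthase, lay under background on every array on the probe sets of its symbol alone. A probe set that also matches the pseudogene Tyms-ps, and so names neither, read 7.96 and 7.22 in CD27+CD11b-, 7.59 and 6.31 in CD27+CD11b+, and 6.603 and 6.52 in CD27-CD11b+, all above background.

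Single-strand binding held the one member that limma called higher between the outermost subsets. Rpa2, the middle subunit of replication protein A, read 9.15 and 9.21 in CD27+CD11b-, 9.46 and 9.49 in CD27+CD11b+, and 10.26 and 10.14 in CD27-CD11b+. No subsets overlapped, and the low and the high array of a subset nearly coincided, unlike those of Rrm2 and Tk1 in the CD27+ subsets. Rpa2 was 2.03-fold higher in CD27-CD11b+ than in CD27+CD11b- (log2 difference 1.02, SE 0.14, limma adjusted p = 0.0113). Most of that lay in the second step, at 0.73 (limma adjusted p = 0.122, and 0.0474 with the block), against 0.29 in the first. Without CD27+CD11b- replicate 1 or either CD27-CD11b+ array it stayed between 0.96 and 1.08, with limma adjusted p from 0.0509 to 0.112.

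Other members of this role did not pass. Rpa1, the large subunit of the same complex, read 12.42 and 12.28 in CD27+CD11b-, 12.20 and 12.34 in CD27+CD11b+, and 12.60 and 12.39 in CD27-CD11b+. Fen1, the flap nuclease, read 11.64 and 11.57, then 11.59 and 11.35, then 11.26 and 11.21. Rpa1 overlapped between the outermost subsets on that probe set. Another Rpa1 probe set above background read 9.93 and 9.64 in CD27+CD11b- and 10.40 and 10.30 in CD27-CD11b+. It differed by 0.56 (SE 0.16, adjusted p = 0.184 in the limma fit of all probe sets). Fen1 did not overlap between the outermost subsets on the probe set used. Its difference of -0.37 there stood against 0.54 on another Fen1 probe set above background.

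Regulators of S-phase entry had 3 of 3 negative differences. Ccne2, cyclin E2, read 5.34 and 4.83 in CD27+CD11b-, 4.27 and 3.79 in CD27+CD11b+, and 3.27 and 3.69 in CD27-CD11b+. No subsets overlapped and limma called it (-1.61, SE 0.25, adjusted p = 0.0162), but all 6 values were under background, so no fold is given. Ccne1, cyclin E1, read 8.80 and 7.95, then 8.43 and 7.73, then 7.84 and 7.89, and E2f1, an activating E2F factor, 6.30 and 5.76, then 6.10 and 5.43, then 5.77 and 5.60. E2f1 overlapped between all subsets and Ccne1 between all but the outermost, and the low array was the higher one in each CD27+ subset.

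Uhrf1, which carries DNA methylation across replication, read 8.0 and 6.59 in CD27+CD11b-, 6.49 and 6.20 in CD27+CD11b+, and 5.69 and 5.46 in CD27-CD11b+. The subsets did not overlap, and 1 array, CD27+CD11b- replicate 1, stood far above the others. The outermost difference was -1.73 (SE 0.39), with a limma adjusted p of 0.0572, and 0.0159 with the block, or at least 2.07-fold lower given the background. Chaf1b, a CAF-1 subunit, read 6.72 and 6.58, then 6.80 and 6.23, then 6.64 and 6.25, with overlap between all subsets.

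**Figure D3:**
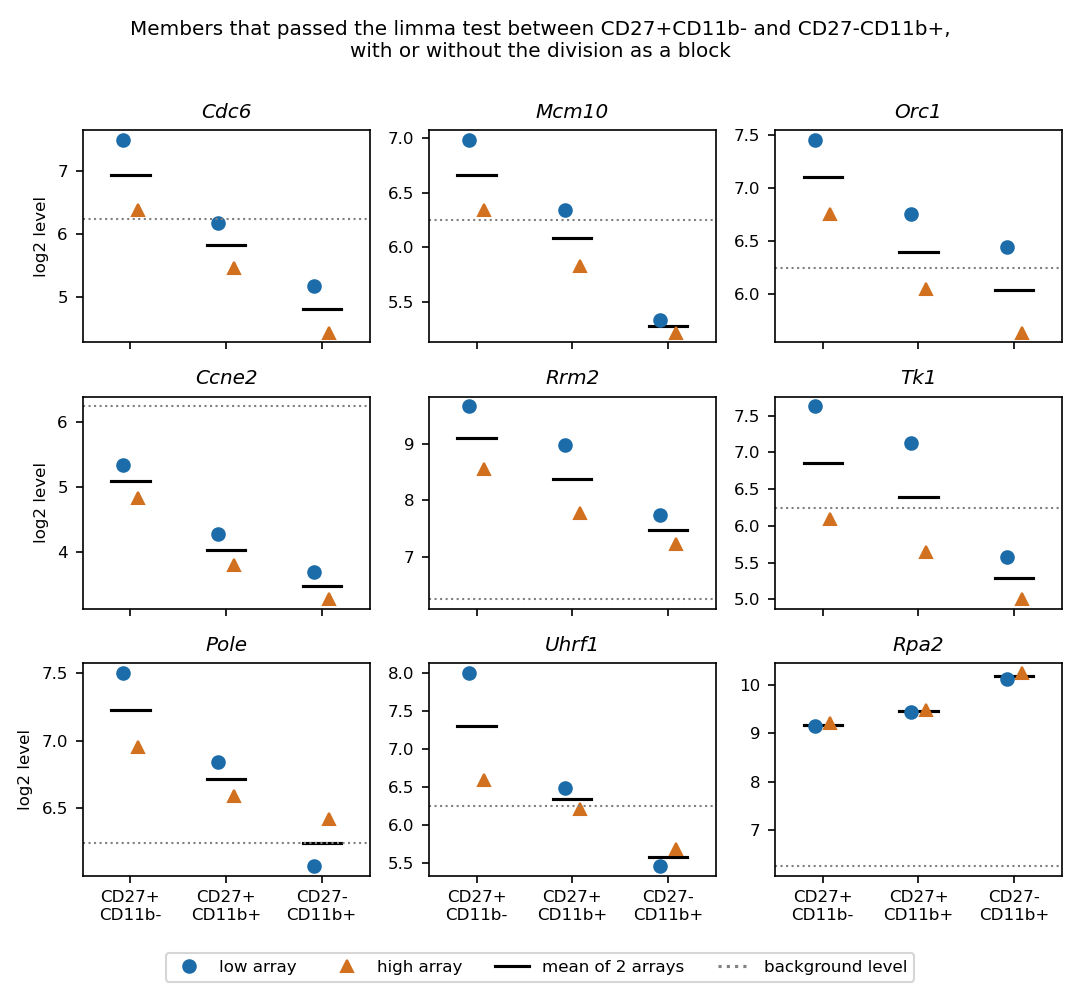
Each panel gives 1 of the 9 members called between the outermost subsets by limma with or without the division as a block; circles are low arrays, triangles high arrays, bars the mean of 2 arrays, and the dotted line the background level of 6.25. The y axes differ between panels and do not start at 0. Low arrays sit above high ones in the CD27+ subsets of 8 panels, and in that of Rpa2 they nearly coincide.

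The 16 members not described array by array had outermost differences between -1.01 and 0.31, and the smallest limma adjusted p among them was 0.133, for Gins2 (0.0566 with the block). Of 19 members with more than 1 probe set above background, the probe sets differed in sign for 7 in the first step, 5 in the second and 5 between the outermost subsets. The last 5 were Mcm4, Prim2, Rfc1, Fen1 and Cdt1, none of which was called. Members whose promoter windows held TTTCCCGC or TTTGGCGC had a median outermost difference of -0.24 (9 genes, -2.13 to 0.31). Those with neither of these exact forms had -0.35 (23 genes, -1.73 to 1.02). Other E2F forms were not searched, so this does not divide the members by E2F control.

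The division of the arrays was itself visible in the members. In a limma fit with subset and division as terms, 4 of 39 were higher on the low arrays (0.165% of all genes were) and 0 were lower (1.17%). These were Tk1 (1.20, adjusted p = 0.0247), Rrm2 (0.94, adjusted p = 0.0301), Cdc6 (0.86, adjusted p = 0.0198) and Orc1 (0.74, adjusted p = 0.0228), and each was higher on the low array in all 3 subsets. Over members, the median low minus high difference was 0.35 within the CD27+CD11b- pair, 0.29 within CD27+CD11b+ and -0.063 within CD27-CD11b+ (all genes 0.037, 0.043 and -0.11). Positive gaps numbered 34, 28 and 15 of 39, beside 10222, 10192 and 5788 of the 18193 genes, so all genes also changed sign in CD27-CD11b+. A pattern of higher in the low array of both CD27+ subsets and lower in that of CD27-CD11b+ was shown by 15 members (26.4% of all genes).

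Among the 4 CD27+ arrays alone, limma called 17 of 39 members higher on the low arrays (4.71% of all genes) and 0 lower (5.05%), with a median of 0.39 (all genes 0.047). They were Mcm3, Mcm7, Gins2, Orc1, Cdc6, Mcm10, Pcna, Rfc3, Prim1, Rrm1, Rrm2, Tk1, Lig1, Ccne1, Ccne2, E2f1 and Uhrf1. Among these 4 arrays the low side is replicate 1 and the high side replicate 2, so division and replicate number cannot be told apart. In the fit of all 6 arrays, 11 of 18 monocyte markers were lower on the low arrays and 0 higher, while 2 of 9 erythroid genes were higher there, as the 4 members were, and 0 lower. Genes of mitosis, read beside the members, had 4 of 15 higher on the low arrays and 0 lower.

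**Figure D4:**
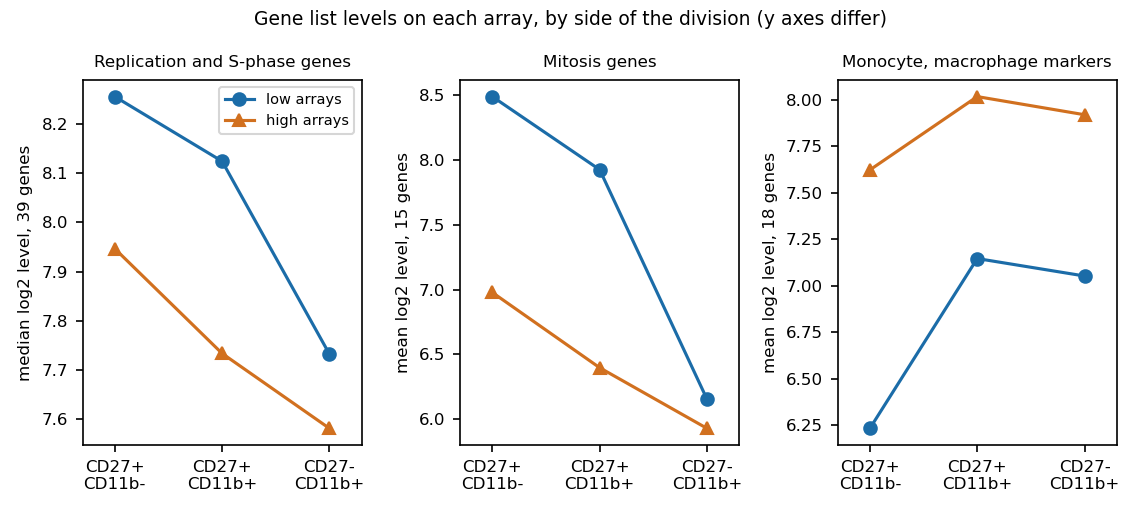
Level on each array for the 39 members (median log2), 15 mitosis genes (mean log2) and 18 monocyte and macrophage markers (mean log2), by subset; circles join low arrays, triangles high arrays, and the y axes differ and do not start at 0. Members read 8.26 and 7.95 in CD27+CD11b- and 7.73 and 7.58 in CD27-CD11b+ on the low and high arrays, while monocyte markers were higher on the high array of each subset.

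Another 47 measured genes of replication were listed apart from the members. Their medians were -0.16 and 0.09 in the steps and -0.05 between the outermost subsets. Limma called 0 of them in either step and, between the outermost subsets, 1 lower and 0 higher (1.15% and 2.24% of all genes). The one was Hells, a chromatin remodeller, which fell by 1.04 (SE 0.20, limma adjusted p = 0.035). With the division as a block 7 were lower (2.83% of all genes were), Gmnn, Atad5, Clspn, Dck, Dut, Shmt1 and Hells. Another 2 were higher, near the share over all genes (5.3%). The higher ones were Slbp, which binds histone mRNA (0.70, limma adjusted p = 0.0269), and Rrm2b, the reductase subunit used outside S phase (0.66, limma adjusted p = 0.0263).

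Of 20 cyclins, kinases and E2F factors outside the members, limma called 3 lower and 1 higher between the outermost subsets (1.15% and 2.24% of all genes). Cdk6, a kinase of early cell cycle entry, fell by 1.61 (limma adjusted p = 0.0044), and by 1.32 in the second step alone (limma adjusted p = 0.0351). E2f3 fell by 1.19 (limma adjusted p = 0.0256) and Tfdp1, the partner of E2F factors, by 0.91 (limma adjusted p = 0.025). Ccnd3, cyclin D3, rose by 1.15 (limma adjusted p = 0.0339). The blocked fit called 7 lower and 1 higher between the outermost subsets (2.83% and 5.3% of all genes). Of 13 cell cycle inhibitors limma called 0 in any comparison, with medians of 0.03, 0.32 and 0.29. At an unadjusted p under 0.05, 0, 4 and 4 were higher (1.84%, 7.7% and 12.5% of all genes) and 0 lower. With the division as a block 1 was called, Btg2, which was higher between the outermost subsets (0.94, limma adjusted p = 0.0117). That fit called 5.3% of all genes higher there.

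Of the mitosis genes, 15 of 15 were negative in each comparison, with medians of -0.69, -1.14 and -1.87, beside -0.29, -0.12 and -0.35 for the members. Limma called 1 of them between the outermost subsets, Mki67, a marker of cycling cells, which fell by 2.76 (adjusted p = 0.0397), and 11 with the division as a block. Over all genes, 1.15% and 2.83% were called lower in these fits. Over the same arrays the monocyte markers had medians of 0.66, -0.10 and 0.69. Limma called 1 of the 18 lower in the second step and between the outermost subsets (0.126% and 1.15% of all genes). This was Ccr2, which NK cells also express. The blocked fit called 7 of the 18 higher between the outermost subsets (5.3% of all genes), and Ccr2 lower (2.83%). Of the 8 T cell genes, Cd3d was called lower between the outermost subsets, at -2.38 (limma adjusted p = 0.0256). The part of these marker levels in the members' differences was not tested.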

How the data were processed

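Per the labels, RNA of 6 sorted samples was hybridised to Affymetrix mouse arrays. The authors deposited log2 values from RMA, which the submitters' processing notes name. Its version is not given in the sources used here, and the log2 scale was read from the range of the values. RMA equalises the distribution between arrays, so a shift of most genes would be lost, and it compresses dim genes. Of 45101 probe sets, 64 controls were left out. Names came from the platform's annotation, in which 34945 probe sets had 1 symbol, 932 several and 9160 none. The identifiers of 34741 were in the RefSeq table. Each gene took its probe set with the highest mean over 6 arrays, a choice that concerned 9010 genes, 31 of them members, and 11 of the probe sets used for members have names that mark possible cross-matches. A probe set shared with a Tyms pseudogene was not used. Samples were grouped by title.

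limma 3.58.1 in R 4.3.3 was fitted to 18193 genes with 1 mean per subset (3 residual and 4.93 prior degrees of freedom) and adjusted by the Benjamini-Hochberg method, with calls at 0.05. The fit with the division as a block had 2 and 6.27. The division was read from the data, as probe sets whose arrays differ by over 4 log2 units in every subset, so the blocked p-values may be too small. Replicate numbers of the titles do not pair the samples across all 3 subsets. Same-numbered deviations correlated at 0.62 between the CD27+ subsets, but at -0.25 and -0.14 between these and CD27-CD11b+. By side of the division the correlations were 0.62, 0.25 and 0.14, so the block was also weak for CD27-CD11b+. The code was tested on simulated data. Members and lists were chosen with earlier results of these data known. Values on every array are given for the 2 members with the highest mean in each role, all called members, and the extremes of each comparison. Leaving out arrays, the block, the probe set rule, an offset of 32, the filter on dim genes, the arrays fitted, a variance trend and single probe sets were tried as alternatives. The number of arrays limits the precision.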

Additional observations from a re-analysis of the deposited data

Results flagged for a closer look

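Over the 39 members, the median low minus high difference was 0.35 within CD27+CD11b- and 0.29 within CD27+CD11b+ but -0.063 within CD27-CD11b+. The sign differed between the subsets in the same way over all genes (0.037, 0.043 and -0.11), and the difference was not tested.

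For the loss of CD27 the median over members was -0.30 between the low arrays and 0.11 between the high arrays, beside -0.043 and 0.093 over all genes. These rest on 1 array a subset on each side, and the difference between the sides was not tested.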

How the results depend on the processing

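Calls are few and depend on single arrays. With the division as a block limma called 2 members lower for the gain of CD11b, 1 lower and 1 higher for the loss of CD27, and 8 lower between the outermost subsets. With a replicate block by title numbers, which do not pair the samples across all subsets, it called 6 lower between the outermost subsets. Leaving out 1 array at a time gave 0 to 5 lower and 0 to 1 higher there. With 32 added to the linear values, or with all probe sets as separate features, 0 were lower. The median over members ranged from -0.46 to -0.072 for the gain of CD11b, from -0.30 to 0.065 for the loss of CD27 and from -0.42 to -0.12 between the outermost subsets when 1 array was left out, with -0.072 and -0.12 without CD27+CD11b- replicate 1. Where that left a subset with 1 array, it was assumed to vary like the others. Members higher on the low arrays numbered 2 to 17 without 1 array (17 without either CD27-CD11b+ array), 2 with the mean of a gene's probe sets and 0 with 32 added. For single members and comparisons, 16 alternatives lost a call and 20 gained one. Signal near or under background limits Cdc6, Mcm10, Orc1, Gins1, Gins2, Tk1, Uhrf1 and Ccne2, among others.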
